A study of Mus musculus with 6 samples.

Results

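The 10 genes described here encode transcription factors, most of which lymphocytes induce when their antigen receptor is engaged. They are Egr1, Egr2 and Egr3 of the EGR family, Nr4a1, Nr4a2 and Nr4a3 of the NR4A family, and Fos, Jun, Junb and Jund of the AP-1 group. They were taken by symbol from a table of 17985 genes from RNA-seq of iNKT1 cells of the thymus, and all 10 were present. iNKT1 cells are invariant natural killer T cells of the subset that expresses T-bet, the product of Tbx21. The control group (Ctrl) had the genotype Tbx21CreTg;Rosa26-LSL-YFP+/+, in which Cre recombinase is driven by Tbx21 and a yellow fluorescent reporter marks cells in which Cre has acted. The knockout group (cKO) carried in addition Tgfbr2F/F, loxP-flanked alleles of the gene for a TGF-beta receptor subunit. Both groups were thymus cells of C57BL/6 mice with no treatment, and each had 3 libraries, numbered 1 to 3 in each group. Deletion in this model is limited to cells that have expressed Tbx21. The age of the mice and the number pooled per library were not given in the sources used here. The labels call the replicates independent. Levels are in CPM, the reads of a gene scaled to the size of its library.

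EGR proteins are zinc finger factors. EGR2 and EGR1 act downstream of calcium and MAP kinase signals from the antigen receptor, and EGR2 is needed for iNKT cell development, where it acts upstream of Zbtb16. NR4A proteins are orphan nuclear receptors whose transcripts follow the strength of antigen receptor signals, and Nr4a1 reporters are widely used for that purpose. FOS and JUN proteins pair through leucine zippers into AP-1, which binds DNA alone or with NFAT. Several of these genes are also switched on by the handling of cells, so that levels in sorted cells can carry a contribution from preparation.

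Promoter sequence is shown for Nr4a1 and Jun, which were higher in cKO within every replicate number, and for Fos, which was not. The lines show matches to the elements named below, and elements further from the start are not covered. Each line gives the 250 bases before the RefSeq start on the coding strand, on build GRCm38.p6, at chr15:101266596-101266845 (plus strand) for Nr4a1, chr4:95052223-95052472 (minus strand) for Jun and chr12:85473640-85473889 (plus strand) for Fos. Capitals mark matches to TGACGT, the core of the cAMP response element, to its variant TGACGC, which reads as GCGTCA on the other strand, to TGACATCA, the AP-1-like element known from the Jun promoter, and to TATTTTTA, the core of an MEF2 element.
Nr4a1: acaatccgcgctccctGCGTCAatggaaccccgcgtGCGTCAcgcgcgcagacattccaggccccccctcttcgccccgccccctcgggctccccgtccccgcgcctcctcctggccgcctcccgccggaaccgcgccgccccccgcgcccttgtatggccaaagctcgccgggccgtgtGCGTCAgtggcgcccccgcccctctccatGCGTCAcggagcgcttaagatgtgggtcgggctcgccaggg
Jun: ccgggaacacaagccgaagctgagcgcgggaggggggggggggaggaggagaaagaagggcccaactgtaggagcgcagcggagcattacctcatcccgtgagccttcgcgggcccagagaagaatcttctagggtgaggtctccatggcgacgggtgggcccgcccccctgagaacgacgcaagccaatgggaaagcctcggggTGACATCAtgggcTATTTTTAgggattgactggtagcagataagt
Fos: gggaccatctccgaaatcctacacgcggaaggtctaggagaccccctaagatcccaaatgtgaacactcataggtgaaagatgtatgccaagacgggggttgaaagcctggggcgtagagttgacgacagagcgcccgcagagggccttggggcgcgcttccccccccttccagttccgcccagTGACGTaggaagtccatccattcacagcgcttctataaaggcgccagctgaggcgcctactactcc

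The Nr4a1 promoter held 4 copies of TGACGC, Nr4a2 held 3 copies of it, and Nr4a3 held 3 copies of TGACGT. Fos held a single copy of TGACGT, and Junb a single copy of TGACGC. Among 32851 mouse promoter windows of the same length, 6.47% held TGACGT and 6.12% held TGACGC on either strand. TGACATCA and TATTTTTA were matched in Jun alone among the members with a RefSeq entry, against 2.93% and 2.45% of all windows. The 2 elements lie 45 to 38 and 32 to 25 bases before the Jun start. Of the 10 members, 8 had an entry. Egr1 and Egr3 had none. The entry nearest the deposited start of the gene was taken, and it lay 152 bases from that start for Nr4a3 and 24 for Egr2. For Jund the window ends at base 70697738, while the GENCODE gene starts at base 70698949. No match was found in these 8 windows to the CArG box (1.47% of all windows), the full cAMP response element TGACGTCA (1.55%), the AP-1 element TGAGTCA (4.46%), the EGR element GCGTGGGCG (0.536%), the NR4A monomer element AAAGGTCA (1.34%) or the palindromic SMAD element GTCTAGAC (0.167%), each searched on both strands. Bases further than 250 before the start were not searched, so the absence of a match holds for these windows alone. The CArG box was searched as CCWWWWWWGG, with W as A or T, so near matches were not counted. The full element TGACGTCA contains TGACGT, so the windows holding the former are a part of those holding the latter. The cores TGACGT and TGACGC and the elements TGACATCA and TATTTTTA were added to the search once the promoter sequences had been read, so their matches were chosen with the letters in view.

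Library totals ran from 28832779 to 68092478 reads. Both libraries numbered 3 stood apart from the other 4: they listed 4406 and 4590 genes at 0 CPM, against 0 to 5 genes elsewhere. Mitochondrially encoded genes took 0.193% of reads in cKO replicate 3, the library with the highest Nr4a1, Egr1 and Jund, against 0.308% to 0.344% in the other 5, and the part of this in their values was not tested. Because of the replicate 3 libraries each comparison is given within replicate numbers as well as between groups. Tgfbr2, the targeted gene, was at 461, 461 and 425 CPM in Ctrl and at 289.8, 258 and 274 CPM in cKO, so all 3 libraries labelled cKO were below all 3 labelled Ctrl. All 14 T cell and iNKT1 markers examined were present, at a summed 11590 to 13560 CPM in Ctrl and 11490 to 15630 CPM in cKO. Of 11 myeloid markers 4 were measured, summing to 12.06 to 16.1 CPM in Ctrl and 11.4 to 17.9 CPM in cKO, with Csf1r at 0 in both replicate 3 libraries. Of 8 B cell markers 6 were measured, at 6.23 to 21.3 and 5.52 to 24.9 CPM. Among 9 double-positive thymocyte markers, which include Cd4, 7 summed to 184 to 211 CPM in Ctrl and 228 to 276 CPM in cKO. Among 10 epithelial and stromal markers 5 summed to 33.8 to 41.1 CPM in Ctrl and 58.06 to 74.5 CPM in cKO, and most of that was Pecam1. All 6 NK cell and ILC1 markers, several of which iNKT1 cells share, summed to 142.5 to 169.7 CPM in Ctrl and 128 to 161 CPM in cKO, and 1 of 7 erythroid markers was measured, at no more than 4.13 CPM. The thymocyte and stromal sums did not overlap between genotypes, and their part in the values below was not tested. Single markers went both ways: 5 thymocyte markers had a mean log2 difference above 0 and 2 below, and 2 stromal markers were above and 3 below.

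Jund and Junb were by far the most abundant members. Levels of different genes were compared per kilobase, for 8 members. The length was the GENCODE release M21 exon length where the deposited position is identical. For Jund and Junb, whose deposited spans differ from GENCODE, it was the deposited width, which equals the span for these genes. How the width was defined is not given in the sources used here, and for Egr1 it exceeds the span (7520 against 5162 bases). Jund ran from 111 to 187 CPM per kb over the 6 libraries and Junb from 103 to 134, and these ranges overlapped. With the GENCODE exon lengths instead, an alternative chosen after seeing the data, Jund ran from 192 to 322 and Junb from 82.01 to 107 CPM per kb, with no overlap, so the order of this pair depends on the length used. Egr1 followed at 17.0 to 32.6, Egr2 at 7.10 to 13.3 and Jun at 0.746 to 3.49 CPM per kb, with no overlap between any of these neighbours or with Junb. Fos was at 0.112 to 0.718, just under the lowest Jun value, and overlapped Nr4a2 at 0.119 to 0.581. Nr4a2 in turn overlapped Nr4a3 at 0.0993 to 0.377 CPM per kb. Within the Jun family, Jund made up 53.8% ± 5.47 of the summed level per kb in Ctrl and 53.6% ± 4.55 in cKO (SD, n = 3 each), Junb 45.8% ± 5.37 and 45.6% ± 4.14, and Jun 0.415% ± 0.162 and 0.730% ± 0.559. With the GENCODE exon lengths, the means were 71.3% and 71.2% for Jund, 28.3% and 28.2% for Junb and 0.322% and 0.570% for Jun. With either set of lengths, transcripts for this family in thymic iNKT1 cells of both genotypes were nearly all Jund and Junb. Egr3 and Nr4a1 are left out of this order because their deposited position differs from GENCODE and their deposited width is not that of the span.

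**Figure D1:**
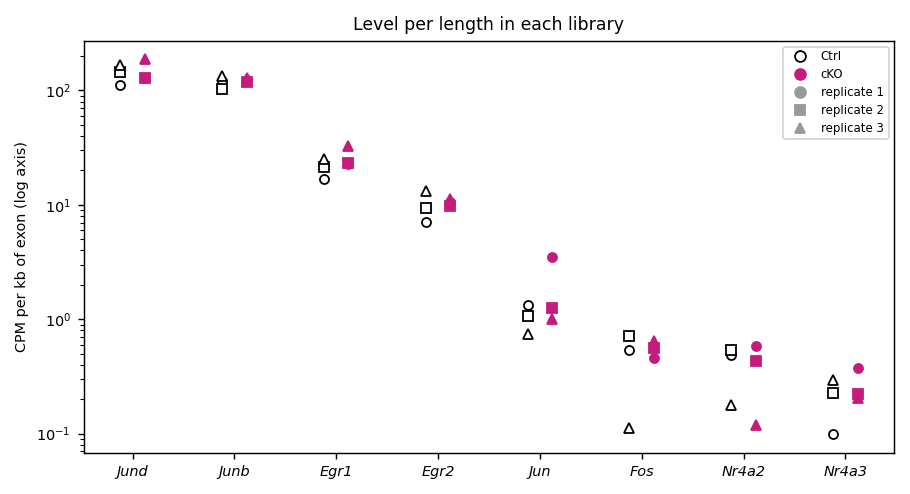
Level of 8 members in each library, in CPM per kb on a log axis, with the deposited width as the length of Jund, Junb and Jun and GENCODE exon lengths for the others; open symbols are Ctrl, filled symbols cKO, and the symbol shape is the replicate number. Jund and Junb lie above 100 CPM per kb in every library, and Fos, Nr4a2 and Nr4a3 lie below 1.

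No member passed an adjusted p of 0.05 between cKO and Ctrl. Under limma on log2(CPM + 1), with group as the only term, 104 of 15691 tested genes passed, or 0.663%, and 0 of the 10 members; 0 members had an unadjusted p under 0.05. Once the replicate number entered the model as a block, 451 genes or 2.87% passed, again with 0 members, and 3 members (Nr4a1, Egr1 and Jun) had an unadjusted p under 0.05. edgeR's quasi-likelihood test, run on whole reads recovered from the CPM, called 0 members without the block and 0 with it, with 0 and 3 at an unadjusted p under 0.05. DESeq2 and limma-voom also called 0, with 0 at an unadjusted p under 0.05 in each, and DESeq2 gave no adjusted p to 3 members. Over all 15691 tested genes, 944 had an unadjusted p under 0.05 with limma and 1981 with its block. The same counts were 853 and 1727 for edgeR, 1386 for DESeq2 and 913 for limma-voom. The groups overlapped for all 10 members. Of all tested genes, 11.0% had groups that did not overlap, so 0 of 10 members is near that share. The median log2 difference of the members was 0.17, with 8 of 10 above 0, against -0.04 and 40.95% above 0 for all tested genes. It was 0.47 within replicate 1, 0.02 within replicate 2 and 0.06 within replicate 3. In bulk samples, fewer cells with a transcript and less of it per cell cannot be told apart.

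**Figure D2:**
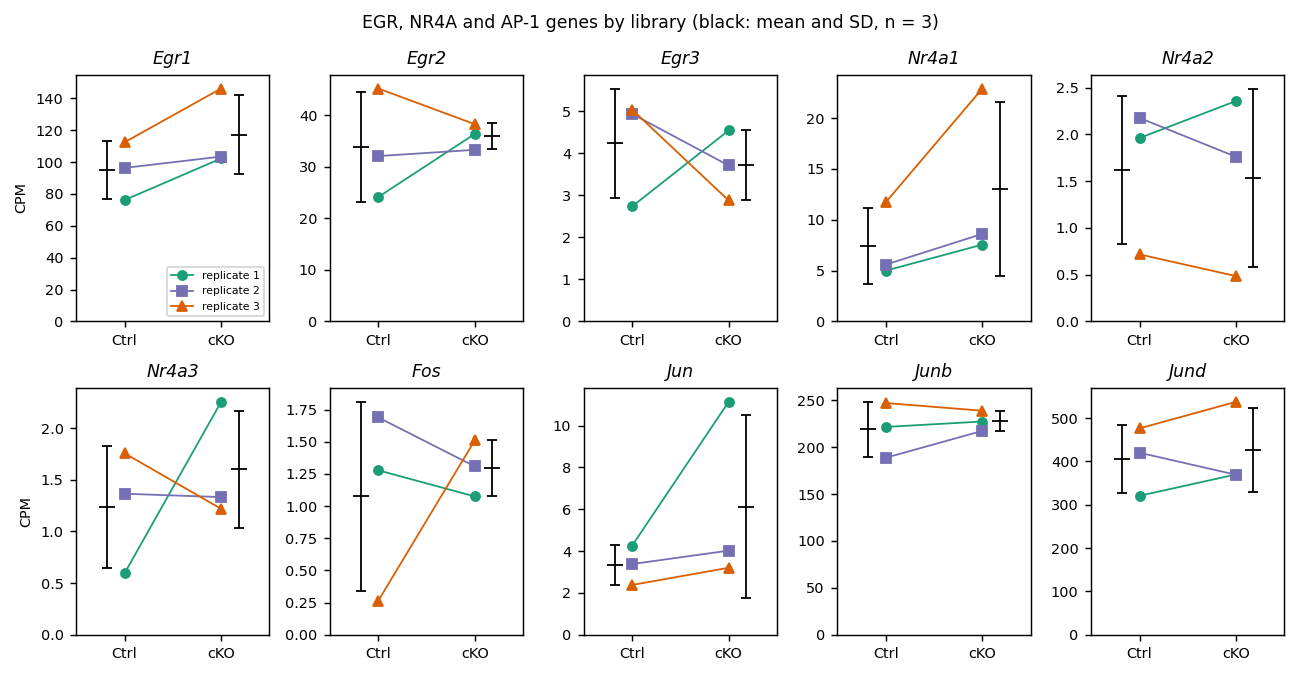
CPM of each member in the 6 libraries, on axes that start at 0; coloured lines join the Ctrl and cKO libraries of the same replicate number, and black marks give the group mean and SD (n = 3). Egr1, Nr4a1 and Jun go up from Ctrl to cKO on all 3 lines, while no other member does.

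Of the 10 members, 3 were higher in cKO within every replicate number (Egr1, Nr4a1 and Jun) and 0 were lower within every number. Of all tested genes, 11.5% (1801) were higher within every number and 2905 were lower within every number. Together these made up 29.99% of tested genes, so the members' 30% in one direction was near that share. Genes at 0 in both replicate 3 libraries cannot count as higher or lower there.

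Egr1 (ENSMUSG00000038418, chromosome 18, 34859823 to 34864984, plus strand, mm10), the founding EGR gene and a direct target of the MAP kinase pathway, measured 76.2, 96.3 and 112 CPM in Ctrl, in the order of the replicate numbers, as in all lists of values here. The cKO libraries were at 102, 103 and 146 CPM. Replicate 3 was the highest library of each group, and the lowest cKO library lay inside the Ctrl range. The log2 difference, cKO minus Ctrl, was 0.42, 0.10 and 0.38 within numbers 1 to 3 and 0.30 over all, with a 95% interval of -0.16 to 0.76 and a limma adjusted p of 0.99998. With the replicate block the interval was 0.08 to 0.52 and the limma adjusted p was 0.209.

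Egr2 (ENSMUSG00000037868, chromosome 10, 67535475 to 67542188, plus strand) encodes the EGR factor that iNKT development requires. It was at 24.1, 32.04 and 45.1 CPM in Ctrl and at 36.3, 33.3 and 38.2 CPM in cKO. The cKO libraries all fell inside the Ctrl range, and the Ctrl SD of 10.6 CPM was larger than the cKO SD of 2.501 CPM (n = 3 each). The direction differed between numbers, with log2 differences of 0.57, 0.05 and -0.23. The mean difference was 0.13, with a 95% interval of -0.39 to 0.65 without the block and -0.23 to 0.49 with it. Without replicate 1, the blocked value was -0.0911.

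Egr3 (ENSMUSG00000033730, chromosome 14, 70077445 to 70080157, plus strand), which shares functions with EGR2 in T cells, was low, with 92 to 267 reads per library. It was at 2.74, 4.94 and 5.04 CPM in Ctrl and at 4.54, 3.71 and 2.88 CPM in cKO. The cKO values lay inside the Ctrl range, and the log2 difference was 0.57 within number 1 but -0.33 and -0.64 within numbers 2 and 3. The mean difference was -0.13, with a 95% interval of -0.96 to 0.69 without the block and -0.69 to 0.42 with it. In replicates 1 and 2 alone it was 0.118. The deposited span of Egr3 lies within a longer one in GENCODE release M21.

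EGR factors are held in check by the corepressors NAB1 and NAB2, the latter itself an EGR target. Nab2 was at 50.9, 69.15 and 75.1 CPM in Ctrl and 64.6, 70.4 and 84.2 CPM in cKO, higher within every number like Egr1. Nab1 was at 202, 179 and 108 CPM in Ctrl and 139, 154 and 163 CPM in cKO, with the direction differing between numbers. Neither passed limma's threshold without the block (adjusted p 0.99998 each) or with it (0.557 and 0.943). Both were named after their values were seen.

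Nr4a1 (ENSMUSG00000023034, chromosome 15, 101266846 to 101274792, plus strand), which encodes NUR77, had the largest mean difference of the 10 members on the log2(CPM + 1) scale, ahead of Jun. The order differs on other scales: the ratio of group means was 1.75 for Nr4a1 and 1.83 for Jun. It was at 4.995, 5.59 and 11.7 CPM in Ctrl and at 7.56, 8.61 and 22.9 CPM in cKO. Both replicate 3 libraries were above all others of their group, and the groups overlapped because Ctrl replicate 3 exceeded cKO replicates 1 and 2. Within numbers the cKO level was 1.51, 1.54 and 1.95 times the Ctrl level. The log2 difference was 0.51, 0.54 and 0.91 within numbers 1 to 3 and 0.66 over all, with a 95% interval of -0.47 to 1.79 and a limma adjusted p of 0.99998. With the block the interval narrowed to 0.27 to 1.04 and the limma adjusted p was 0.103. Under edgeR with the block the log2 difference was 0.78 with an adjusted p of 0.0705. With each replicate number left out in turn, the blocked difference ran from 0.529 to 0.727. With single libraries left out of the fit without the block, it ran from 0.190 (without cKO replicate 3) to 0.995 (without Ctrl replicate 3).

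Nr4a2 (ENSMUSG00000026826, chromosome 2, 57106830 to 57124003, minus strand), which encodes NURR1, was near the lower limit of the tested genes, with 33 to 74 reads per library. It was at 1.96, 2.18 and 0.718 CPM in Ctrl and at 2.36, 1.76 and 0.485 CPM in cKO. The replicate 3 libraries were lowest in both groups, the reverse of their order for Nr4a1. The mean log2 difference was -0.08, with a 95% interval of -1.30 to 1.15 without the block and -0.47 to 0.31 with it.

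Nr4a3 (ENSMUSG00000028341, chromosome 4, 48045153 to 48086447, plus strand), which encodes NOR1, had 20 to 93 reads per library and was at 0.595, 1.36 and 1.76 CPM in Ctrl and 2.25, 1.33 and 1.22 CPM in cKO. Replicate 1 held both the lowest library, in Ctrl, and the highest, in cKO. The cKO level was 3.79 times the Ctrl level within number 1, with a counting interval of 2.27 to 6.61. It was 0.976 times within number 2 (0.643 to 1.49) and 0.694 times within number 3 (0.510 to 0.943). The mean log2 difference of 0.23 had a 95% interval of -0.82 to 1.29 without the block and -0.35 to 0.82 with it, and without replicate 1 the blocked value was -0.166.

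**Figure D3:**
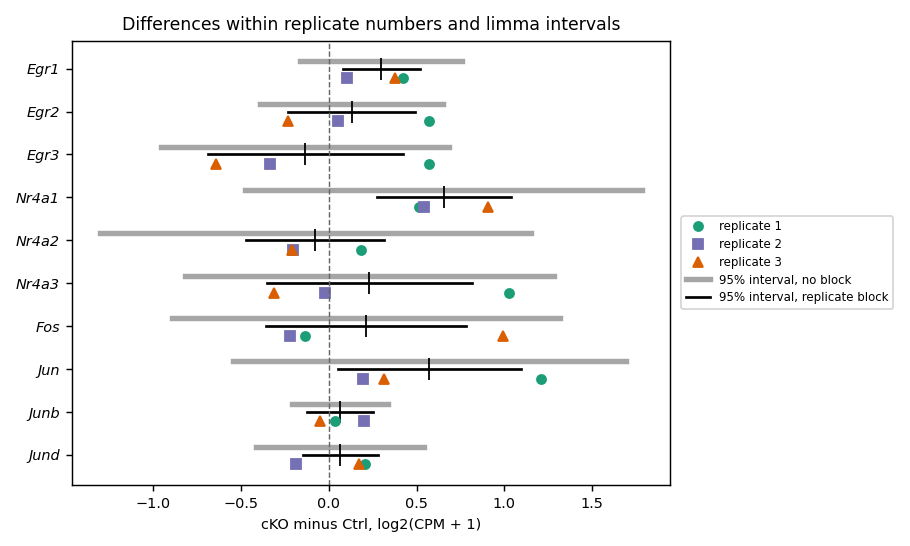
Difference of each member, cKO minus Ctrl, on the log2(CPM + 1) scale; coloured symbols are the 3 replicate numbers, bars are 95% limma intervals without the block (grey) and with it (black), and the tick is the mean. Grey bars cross 0 for all 10 genes, and black bars lie above 0 for Egr1, Nr4a1 and Jun before adjustment for the number of genes.

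Fos (ENSMUSG00000021250, chromosome 12, 85473890 to 85477273, plus strand), whose protein joins AP-1 only by pairing with a JUN protein, was barely present, with 14 to 103 reads per library. It was at 1.28, 1.69 and 0.264 CPM in Ctrl and at 1.08, 1.31 and 1.51 CPM in cKO. A single library, Ctrl replicate 3, lay far below the other 5. The cKO level was 0.841 times the Ctrl level within number 1 and 0.774 times within number 2, with 95% counting intervals of 0.512 to 1.37 and 0.520 to 1.15. Within number 3 it was 5.72 times, with an interval of 3.26 to 10.8, from 14 against 103 reads. These intervals cover counting error only. The mean log2 difference was 0.21, with a 95% interval of -0.89 to 1.31 without the block and -0.36 to 0.78 with it. In replicates 1 and 2 alone it was -0.178.

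Jun (ENSMUSG00000052684, chromosome 4, 95049034 to 95052222, minus strand), which can form AP-1 with FOS or with itself, was at 4.25, 3.38 and 2.38 CPM in Ctrl and at 11.1, 4.02 and 3.20 CPM in cKO. The library of cKO replicate 1 stood well above the other 5, and the remaining cKO libraries lay inside the Ctrl range. The cKO level was 2.62 times the Ctrl level within number 1 (counting interval 2.14 to 3.21), 1.19 times within number 2 (0.927 to 1.53) and 1.34 times within number 3 (1.08 to 1.69). The mean log2 difference was 0.57, with a 95% interval of -0.54 to 1.69 and a limma adjusted p of 0.99998, and with the block 0.05 to 1.09 and 0.344. Leaving out cKO replicate 1 lowered the difference to 0.106, and leaving out both replicate 1 libraries with the block lowered it to 0.256. An antisense transcript, Junos, shares 689 bases with Jun, and strand-specific counting is not stated, so reads of both cannot be told apart.

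Of 13 tested heat shock genes, 7 were highest in that same library and 6 in cKO replicate 3. Hspa1a, a stress-inducible HSP70 gene, was at 7.97, 1.82 and 0.982 CPM in Ctrl and at 16.2, 3.50 and 1.38 CPM in cKO. Its near-identical neighbour Hspa1b was at 32.8, 5.13 and 5.87 CPM in Ctrl and at 48.3, 7.90 and 4.83 CPM in cKO, and reads of this pair are not reliably separable. Replicate 1 was thus the highest number in both genotypes for both genes. Dnajb1, an HSP40 co-chaperone, was at 111, 107 and 108 CPM in Ctrl and at 211, 119.6 and 152 CPM in cKO, again highest in cKO replicate 1. Hspa8, the constitutive HSP70 gene, was highest in cKO replicate 3 instead, at 1952 CPM, as were Hspa5, Hsp90ab1, Hsph1, Hspe1 and Hspd1. The latter 5 were named after their values were seen. The part of cell stress in the Jun values was not tested. Hspa1a and Hspa1b were named after their values were seen.

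**Figure D4:**
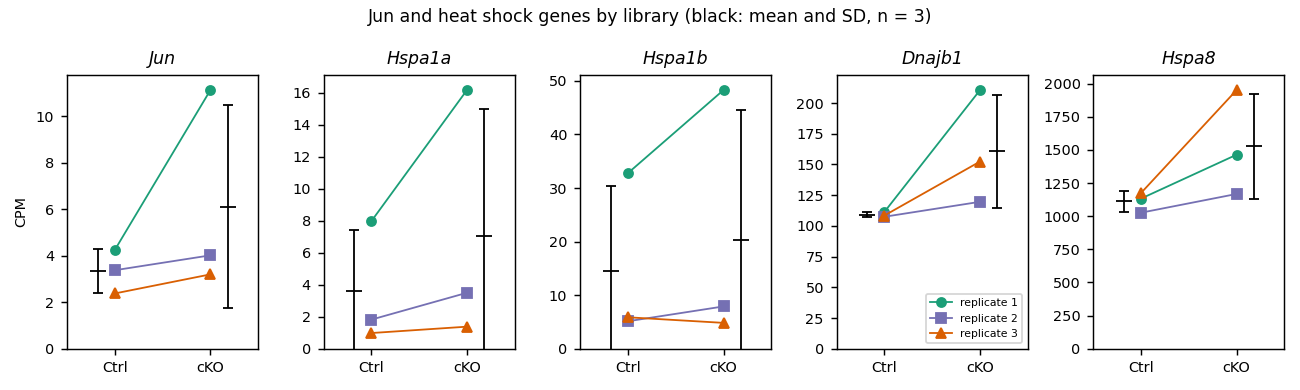
CPM of Jun and 4 heat shock genes in the 6 libraries, on axes that start at 0; coloured lines join libraries of the same replicate number, and black marks give the mean and SD (n = 3), cut off at 0 where the SD exceeds the mean. For Jun, Hspa1a, Hspa1b and Dnajb1 the highest point is cKO replicate 1, and for Hspa8 it is cKO replicate 3.

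Junb (ENSMUSG00000052837, chromosome 8, 84976909 to 84978748, minus strand), which opposes JUN on some targets, was the member whose difference was bounded most tightly. It was at 222, 189 and 247 CPM in Ctrl and at 227, 217 and 239 CPM in cKO, with all cKO libraries inside the Ctrl range. The mean log2 difference was 0.06, with a 95% interval of -0.21 to 0.34 without the block and -0.12 to 0.25 with it. The direction differed between numbers, at 0.04, 0.20 and -0.05.

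Jund (ENSMUSG00000071076, chromosome 8, 70697739 to 70700616, plus strand), the JUN gene that most cells express without stimulation, was at 321, 419.96 and 476 CPM in Ctrl and at 369.9, 369.0 and 537 CPM in cKO. Replicate 3 was the highest library of each group. The log2 difference was 0.21, -0.19 and 0.17 within numbers 1 to 3 and 0.06 over all, with a 95% interval of -0.41 to 0.54 without the block and -0.15 to 0.28 with it. An antisense gene, Gm11175, shares 919 bases with Jund.

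Several members differed between replicate numbers. An F-test of the replicate-number terms with limma, in a model that also held the group, called 5 of the 10 members at an adjusted p of 0.05: Nr4a1 (0.00162), Nr4a2 (0.00851), Jund (0.0113), Egr1 (0.0158) and Jun (0.0329). Of all tested genes, 5960 or 38.0% were called in this test, so the members' share was near that of the background. The members did not move one way. In replicate 3, Nr4a1 averaged 17.3 CPM against 6.69 CPM in replicates 1 and 2, Egr1 129 against 94.6 CPM and Jund 507 against 369.9 CPM. Nr4a2 averaged 0.601 against 2.06 CPM and Jun 2.79 against 5.70 CPM. The F-test compares replicate numbers and not their order, and what distinguishes the numbers is not given in the labels.

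The other genes of these pathways were examined as 5 lists, of which 85 genes were tested. Counts over all tested genes at an unadjusted p under 0.05 are given above for each fit. In the list of other AP-1 and partner bZIP genes, all 10 tested of 13 listed had a mean difference above 0, with a median log2 difference of 0.28 against -0.04 for all tested genes. Of these, 0 passed limma's adjusted p without the block, where 1 had an unadjusted p under 0.05, and 0 passed with it, where 3 did. DESeq2 and limma-voom called 0 of the 10, with 3 and 1 at an unadjusted p under 0.05, and edgeR called 0 without the block, with 0, and 1 with it, with 5. Jdp2, which encodes a JUN dimerization partner that represses AP-1, was at 3.42, 4.52 and 7.71 CPM in Ctrl and at 9.95, 7.92 and 12.8 CPM in cKO. Every cKO library was above every Ctrl library, and the levels were 2.91, 1.75 and 1.67 times the Ctrl levels within numbers 1 to 3. Its log2 difference of 0.89 ± 0.32 (SE) had a limma adjusted p of 0.663 without the block and 0.050026 with it, and an edgeR adjusted p of 0.0290 with the block. With the block and TMM scaling together, 2 genes of this list passed limma's threshold. Atf3, a stress-induced bZIP gene, was at 0.773, 0.292 and 0.661 CPM in Ctrl and at 1.18, 2.90 and 2.36 CPM in cKO, from 9 to 161 reads, and its groups did not overlap either. Its limma adjusted p was 0.910 without the block and 0.0952 with it. Within replicate numbers, 5 of the 10 genes were higher in cKO in every number.

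The list of upstream regulators had a smaller median difference than the bZIP list. In the list of SRF and its ETS partners, CREB1, MEF2 and NFAT factors, HDAC7 and EGR corepressors, 14 of 15 were tested, with 9 above 0 and a median log2 difference of 0.06. Of these, 0 passed limma's adjusted p without the block and 0 with it, with 1 at an unadjusted p under 0.05 in each fit. edgeR called 0 in both of its fits, with 1 and 2 unadjusted, limma-voom called 0, with 1, and DESeq2 called 1. The gene with the smallest p was Elk3, which encodes an ETS factor that partners with SRF, at 72.8, 80.7 and 77.6 CPM in Ctrl and 64.6, 63.98 and 54.3 CPM in cKO. Its log2 difference was -0.34 ± 0.10 (SE), with limma adjusted p values of 0.495 without the block and 0.176 with it, and a DESeq2 adjusted p of 0.00426. Elk4, which encodes another such factor, had the next smallest p in the fit without the block, at 61.9, 62.7 and 57.1 CPM in Ctrl and 65.7, 71.02 and 64.3 CPM in cKO (limma adjusted p 0.99998).

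Among 26 other immediate early genes, 1 passed limma's adjusted p without the block and 3 with it, with 16 above 0 and a median log2 difference of 0.17. Of all tested genes, 0.663% and 2.87% passed in these fits. An unadjusted limma p under 0.05 was reached by 7 of the 26 without the block and by 15 with it. Socs3, an inhibitor of cytokine receptor signalling, rose by 0.96 on the log2 scale (limma adjusted p 0.0352, or 0.00481 with the block). It was at 17.5, 20.4 and 19.9 CPM in Ctrl and at 37.01, 34.6 and 43.9 CPM in cKO. It passed in 0 of the 6 fits that each left out 1 library, where the limma adjusted p ran from 0.0592 to 0.169, and did not pass under TMM or DESeq2-type scaling without the block. Tgfbr2, the targeted gene, passed in 1 of those 6 fits. Socs3 passed in 3 of 3 blocked fits that left out a replicate number (limma adjusted p 2.01e-05 to 0.0235). With the block but not without it Nfkbia rose, from 233 ± 50.9 to 322 ± 42.4 CPM (limma adjusted p 0.0156), and Btg1 fell, from 798 ± 68.3 to 596 ± 84.7 CPM (0.0143). Nfkbia encodes an inhibitor of NF-kappaB and Btg1 an antiproliferative factor. Each passed in 1 of 3 blocked fits that left out a replicate number.

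In the heat shock list, 10 of 13 tested genes were above 0, with a median log2 difference of 0.24 (0.34 within replicate 1, 0.05 within replicate 2 and 0.28 within replicate 3). Of these, 0 passed limma's adjusted p without the block, with 1 at an unadjusted p under 0.05, and 0 passed with it, with 6. edgeR called 0 without the block, with 2 unadjusted, and 1 with it, with 8, while DESeq2 and limma-voom called 0, with 4 and 2. The smallest p values were those of Dnajb1, at a log2 difference of 0.52 and limma adjusted p values of 0.711 without the block and 0.107 with it, and of Hspa8, at 0.43, 0.849 and 0.0720.

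Among 22 tested genes of the 25 listed as induced by the antigen receptor, 2 passed limma's adjusted p without the block, in opposite directions, and the median log2 difference was 0.03 with 11 above 0 and 11 below. An unadjusted limma p under 0.05 was reached by 5 of the 22 without the block and by 11 with it. Il2ra, the high-affinity chain of the interleukin-2 receptor, was at 8.12, 9.36 and 8.44 CPM in Ctrl and at 37.9, 36.2 and 39.1 CPM in cKO. It rose by 2.01 ± 0.12 on the log2 scale (SE, limma adjusted p 0.00215) and passed in 6 of 6 fits that each left out 1 library. Xcl1, a chemokine of cytotoxic lymphocytes, was at 168, 164 and 212 CPM in Ctrl and 98.5, 85.7 and 90.2 CPM in cKO, a log2 difference of -0.97 (limma adjusted p 0.0281), and passed in 0 of those 6 fits. In blocked fits that left out a replicate number, Xcl1 passed in 3 of 3 (limma adjusted p 7.75e-10 to 0.0016). With the block 4 genes passed, the other 2 being Cish, a suppressor of cytokine signalling, which fell from a mean of 85.2 to one of 34.1 CPM (limma adjusted p 0.000406), and Rgs1, a regulator of G protein signalling, which fell from a mean of 128 to one of 83.1 CPM (0.0114). Rgs1 passed in 2 of 3 blocked fits that left out a replicate number, where its limma adjusted p reached 0.0594. Cd69 and Cd5, the markers most often read beside Nr4a1, were at 58.2 ± 4.95 and 63.02 ± 12.4 CPM, and at 202 ± 16.3 and 236 ± 22.3 CPM, in Ctrl and cKO, and neither passed in either fit (limma adjusted p with the block 0.832 and 0.232). Cd5 was higher in cKO within every replicate number, at log2 differences of 0.20, 0.24 and 0.23, with an unadjusted limma p of 0.0164 with the block. The direction of Cd69 differed between numbers. Cd69 and Cd5 were named after their values were seen.

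**Figure D5:**
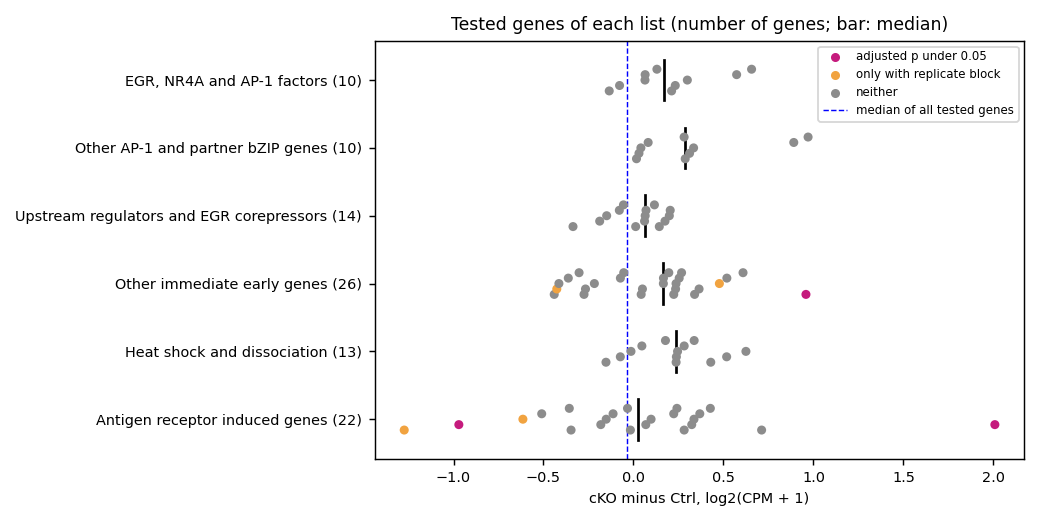
Log2 difference, cKO minus Ctrl, of each tested gene of the members and of the 5 lists (number of genes in brackets); the bar is the list's median and the dashed line the median of all tested genes. Pink points passed limma's adjusted p of 0.05 without the block, orange points only with it, and the 10 members show neither.

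Across the 6 libraries, the mean of the members' log2(CPM + 1), each centred on its own mean, was lowest in Ctrl replicate 1 (-0.26) and highest in cKO replicate 1 (0.20). As a description with no test, the genes at a mean of at least 5 CPM whose values over the 6 libraries were most like it were Pptc7, Aars, Ahsa2, Kti12 and Dusp19. Aars, for one, was at 137, 157 and 158 CPM in Ctrl and at 169, 159 and 163.5 CPM in cKO. After the mean of each replicate number was taken off, which leaves 1 free value per number, the most alike were Fam105a, Vps37b, Gprin3, Zfp949 and Lef1. These were picked from 10136 genes by Pearson correlation.

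In the authors' deposited table, none of the 10 members was marked as higher or lower, and each had an adjusted p of 0.999975. The log2 fold changes there were 0.38 for Egr1, 0.14 for Egr2, -0.16 for Egr3, 0.90 for Nr4a1, -0.04 for Nr4a2 and 0.39 for Nr4a3. For Fos, Jun, Junb and Jund the authors' deposited table gave 0.38, 0.90, 0.12 and 0.15.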

How the data were processed

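RNA-seq of 3 Ctrl and 3 cKO libraries of thymic iNKT1 cells was analysed. Per the submitters' processing notes, Trimmomatic 0.33, STAR 2.5.2, HTSeq 0.6.1 and edgeR were used with build mm10; counting options and annotation release are not given in the sources used here. Values per library are CPM, deposited by the authors. Their own comparison is deposited with it: per the file headers, each gene has a log2 fold change and mean level, a test score (LR), raw and adjusted p-values, its position and a width. Columns named WT and KO were taken as Ctrl and cKO. Every CPM value was a whole multiple of 1 read within 0.001 (100% in each library), so whole reads were recovered. 1 read was worth 0.0147 to 0.0347 CPM. No molecular identifiers are named in the sources used here, so intervals from reads cover counting error only.

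The test was limma 3.58.1 on log2(CPM + 1), with a mean-variance trend and robust moderation, for 15691 genes whose mean reached 1 CPM; Benjamini-Hochberg adjustment ran over all of them. Differences on this scale understate the change of genes at low CPM. On the recovered reads, edgeR 4.0.16 (41 genes called; 469 with the replicate block), DESeq2 1.42.0 and limma-voom were alternatives. The limma and edgeR fits, each without and with the block, were tried on simulated data. DESeq2, limma-voom and the other settings were not. Same-numbered libraries deviated together from their group means (correlations over genes 0.855, 0.688 and 0.924 for numbers 1 to 3), so the numbers were taken to pair the libraries. Libraries of different numbers correlated at 0.718 (Ctrl 2 with cKO 1) and 0.579 (Ctrl 1 with cKO 2), and at -0.698 or lower between number 3 and the others. The correlations thus separate number 3, but not numbers 1 and 2 from each other. Counting intervals are exact binomial at 95%. The labels do not say whether replicates came from separate mice, so p-values measure the spread between these libraries. Lengths were the deposited width where it equals the gene span, and otherwise GENCODE M21 exon lengths where positions are identical. Promoters are from RefSeq.

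Members and lists were chosen with earlier results of these data known. Genes named were all 10 members, up to 4 per list past the threshold without the block and 4 further with it, and otherwise the 2 with the smallest p, Tgfbr2, and the 5 genes most like the members by each of 2 measures; exceptions are stated.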

Additional observations from a re-analysis of the deposited data

How the results depend on the processing

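The count of 0 members called between genotypes held under all 16 alternatives, the 6 fits that left out 1 library and the 3 blocked fits that left out a replicate number, the last added after seeing the data. A filter at a mean of 5 CPM tested only Egr1, Egr2, Nr4a1, Junb and Jund among the members, so it says nothing of the other 5. The threshold of 0.01 was applied to the main fit, so its 0 was fixed in advance. DESeq2 gave no adjusted p to Fos, Nr4a2 and Nr4a3, so it could not call them. For each change given here the cause was not tested, beyond the fewer samples of fits that left some out. Against 104 genes called, the replicate block gave 451 genes, 513 with TMM scaling, edgeR 41 and 469 with the replicate block, DESeq2 552, limma-voom 61, moderation without trend and robust 39, a threshold of 0.01 gave 26, and replicates 1 and 2 alone 296; leaving out 1 library gave 14 to 97, and the replicate block without a number 345, 426 and 897. The low end of 14 came without Ctrl replicate 2, and the 897 without replicate 3.

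The antigen receptor list, at 2 calls, had 4 with the replicate block, 5 with the block and TMM scaling, 1 under edgeR, 4 under edgeR with the block, 5 under DESeq2, and 1 at a threshold of 0.01 or without trend and robust; it had 1 in each fit without 1 library and 3 to 7 in blocked fits without a number. The immediate early list, at 1 call, had 3 with the replicate block, with TMM added or under edgeR with the block, 5 under DESeq2 or in replicates 1 and 2 alone, and 0 under TMM, DESeq2-type size factors, edgeR, limma-voom, a threshold of 0.01 or without trend and robust; it had 0 in each fit without 1 library and 1 to 12 in blocked fits without a number. The bZIP list, at 0, had 1 under edgeR with the replicate block, 2 with the block and TMM scaling and 1 to 2 in blocked fits without a number. The heat shock list, at 0, had 1 under each of edgeR and TMM scaling with the block and 0 to 2 without a number. The upstream list, at 0, had 1 under DESeq2 and 0 to 2 in blocked fits without a number.

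Between replicate numbers, 2 members instead of 5 passed at 0.01, and 3 to 6 when 1 library was left out, the 3 without Ctrl replicate 1. The count of genes ran from 4554 to 8730 in those fits.

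Directions of the 10 members were the same under each scaling, pseudocount and tool and with no filter, and those of the 5 members it kept under the 5 CPM filter. In replicates 1 and 2 alone Egr3 was at 0.118 and Fos at -0.178. Without 1 library, log2 differences ran from -0.0821 to 0.357 for Egr2, -0.111 to 0.433 for Fos, -0.039 to 0.155 for Junb, -0.115 to 0.190 for Jund and -0.356 to 0.268 for Nr4a2. In blocked fits without a number they ran from -0.0911 to 0.312 for Egr2, -0.487 to 0.118 for Egr3, -0.178 to 0.428 for Fos, -0.00571 to 0.12 for Junb, -0.0059 to 0.190 for Jund and -0.166 to 0.505 for Nr4a3. Over fits without 1 library Nr4a1 ran from 0.190 (without cKO replicate 3) to 0.995, Egr1 from 0.132 (without cKO replicate 3) to 0.429 and Jun from 0.106 to 0.871. The antigen receptor median was -0.0332 at a mean of at least 5 CPM and -0.00239 to 0.0865 without 1 library, and the upstream median -0.0366 to 0.0859. Fos, Nr4a2 and Nr4a3 had at most 103 reads in any library, which limits the precision of their values.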
